A study of Caenorhabditis elegans with 21 samples.

Results

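The genes described here build, load and maintain the sensory cilium of Caenorhabditis elegans. They are 40 genes chosen by name for their known roles, out of 21752 genes measured, and all 40 names were found in the tables. The list holds 6 subunits of the BBSome, 14 proteins of intraflagellar transport complex B (IFT-B), 4 of complex A (IFT-A), 6 motor subunits, 2 small GTPases, 5 transition zone proteins and a group of 3 made up of the kinase dyf-5, the dendrite anchor dyf-7 and the transcription factor daf-19. The genes were picked by name and role rather than by measured values, but earlier results of these data were known when the choice was made. Of the 40 genes, 26 had enough counts to be tested. Where genes are ranked by level per length, the rank is by mean TPM over all libraries.

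The libraries came from whole worms of strains that carry mutations around HIF-1, the hypoxia-inducible factor. There were 3 libraries each of rhy-1(ok1402), of the double mutant egl-9(sa307);vhl-1(ok161), of vhl-1(ok161), of the double mutant egl-9(sa307) hif-1(ia4), of egl-9(sa307), of hif-1(ia4) and of N2, the wild type, or 21 in all. Every sample held 30-50 young adults that showed no eggs, picked from synchronized cultures on NGM plates with OP50 bacteria, and no agent was added in any group. RNA came from whole worms, so the cells behind a value were not resolved. Genotypes are written below without their alleles, and the double mutant without further name is egl-9;vhl-1. The comparisons centre on the loss of vhl-1, made in the wild-type background (vhl-1 against N2) and in egl-9 mutants (egl-9;vhl-1 against egl-9).

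In C. elegans hermaphrodites the cilia sit on the dendrite tips of sensory neurons, and no other cell type carries them. Cargo is carried out from the base along the ciliary microtubules by kinesin motors that move IFT-B and IFT-A particles, which the BBSome helps hold together, and dynein brings the particles back. The transition zone controls entry at the base, and the RFX factor DAF-19 switches on most genes of the pathway. Loss of these genes gives osmotic avoidance, chemotaxis or dye-filling defects, which are the source of the names osm, che and dyf. In the oxygen pathway, EGL-9 hydroxylates HIF-1, VHL-1 recognises the hydroxylated protein for degradation, while RHY-1 keeps EGL-9 active. VHL proteins have also been tied to cilia in mammals.

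The libraries held 7329864 to 10102598 estimated counts, of which the 40 genes took 620 to 1487 per library. Levels are counts-per-million values (CPM) after TMM scaling of library sizes. Changes are given on the log2 scale with the standard error of edgeR's quasi-likelihood test on all 21 libraries. The threshold for a call was 0.05 on p-values adjusted by Benjamini-Hochberg over the 12974 genes tested. The mutated gene vhl-1 had 0 counts in all 3 egl-9;vhl-1 and all 3 vhl-1 libraries, against 17, 19 and 9 counts in N2. A count of 0 allows up to 3 counts in a library by counting error alone. The labels do not say whether replicates were grown separately, so p-values measure the spread between these samples, which may be technical.

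Few of the 26 tested cilium genes were called with vhl-1 loss, which does not show that the rest were unchanged. In vhl-1 against N2, 2 of 26 rose and 0 fell, namely dyf-3 and dyf-7, which is 7.69% of those tested, where 12.5% of all genes tested were called and 6.55% were called higher. In egl-9;vhl-1 against egl-9, dyf-3 rose and bbs-5 fell, again 7.69%, where 8.49% of all genes were called, 1.79% higher and 6.70% lower. Averaged over both backgrounds, dyf-3 was the 1 of 26 that rose, which is 3.85% where 13.4% of all genes were called and 6.43% were higher. The double mutant against N2 had 3 genes higher, dyf-3, dyf-7 and osm-1, which is 11.5% where 34.6% of all genes were called and 16.5% were higher. The shares of cilium genes called were not tested against those of all genes. A single IFT-B gene, dyf-3, rose with vhl-1 loss in both backgrounds.

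dyf-3 encodes an IFT-B component, the worm homologue of qilin, that is needed for full-length sensory cilia. Its gene, WBGene00001119, lies on chromosome IV from 3396581 to 3399231 on the minus strand of WBcel235 and overlaps no other protein-coding gene. Its level was 46.1, 41.0 and 32.2 CPM in egl-9;vhl-1 and 12.8, 11.8 and 8.30 CPM in vhl-1. It was 14.7, 11.2 and 11.2 CPM in egl-9, and 2.38, 2.36 and 4.23 CPM in N2. All egl-9;vhl-1 libraries lay above those of either single mutant, the vhl-1 and egl-9 libraries overlapped, and both single mutants lay above N2.

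dyf-3 was 3.69-fold higher in vhl-1 than in N2 (95% interval 2.42 to 5.63, log2 fold change 1.88 ± 0.29 SE, n = 3 each, edgeR adjusted p = 1.93e-04). In the double mutant it was 3.20-fold higher than in egl-9 (2.27 to 4.51, log2 1.68 ± 0.24, edgeR adjusted p = 4.31e-04). Against N2, the double mutant was 13.3-fold higher (8.91 to 19.9, log2 3.74 ± 0.28, edgeR adjusted p = 5.32e-09). The change with vhl-1 loss in egl-9 mutants minus that in the wild-type background was −0.21 ± 0.37 on the log2 scale, with an interval of −0.99 to 0.57 (edgeR adjusted p = 0.803). A departure from multiplying folds was therefore not detected, within that interval. The calls of dyf-3 in both vhl-1 comparisons held in all 29 alternative settings tried, with adjusted p of 0.0062 at most in vhl-1 against N2 and 0.00429 at most in egl-9;vhl-1 against egl-9.

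dyf-3 was also high in rhy-1 and overlapped N2 in both genotypes that carry hif-1(ia4). The rhy-1 libraries had 51.1, 39.9 and 44.97 CPM and overlapped the double mutant with vhl-1. Its level in egl-9 hif-1 was 3.35, 1.79 and 3.95 CPM and in hif-1 it was 2.33, 4.83 and 4.72 CPM, against 2.38, 2.36 and 4.23 CPM in N2. dyf-3 was 15.2-fold higher in rhy-1 than in N2 (10.2 to 22.7, edgeR adjusted p = 4.33e-09) and 4.17-fold higher in egl-9 than in N2 (2.73 to 6.35, edgeR adjusted p = 2.57e-05). It fell by 2.03 ± 0.29 on the log2 scale in egl-9 hif-1 against egl-9 (edgeR adjusted p = 2.94e-05). In egl-9 hif-1 against N2 the log2 difference was 0.03 with an interval of −0.68 to 0.73, and in hif-1 against N2 it was 0.39 (edgeR adjusted p = 0.982 and 0.433). Comparisons with N2 share its 3 libraries, and those with egl-9 share the egl-9 libraries, so their values are not independent.

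By mean, dyf-3 ran in the order rhy-1, egl-9;vhl-1, egl-9, vhl-1, then hif-1, then egl-9 hif-1 and last N2, and 4 of the steps between neighbours were tested. The step from rhy-1 to egl-9;vhl-1 was 0.19 on the log2 scale (interval −0.27 to 0.65, edgeR adjusted p = 0.555), a comparison added after the values were seen. The step between vhl-1 and egl-9 was −0.18 (interval −0.70 to 0.35, edgeR adjusted p = 0.757). Between egl-9;vhl-1 and egl-9 lay the step of 1.68 given above, the 1 step of these 4 that was called, and between egl-9 hif-1 and N2 the step of 0.03. As a contrast in the same libraries, nhr-57, a known HIF-1 target, was 49.1, 42.8 and 50.5 CPM in vhl-1 and 7.97, 6.83 and 5.32 CPM in N2, a log2 change of 2.81. With vhl-1 loss in egl-9 mutants the log2 difference of nhr-57 was −0.05 (edgeR adjusted p = 0.825), whereas dyf-3 rose there. The difference between these 2 genes was not itself tested.

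**Figure D1:**
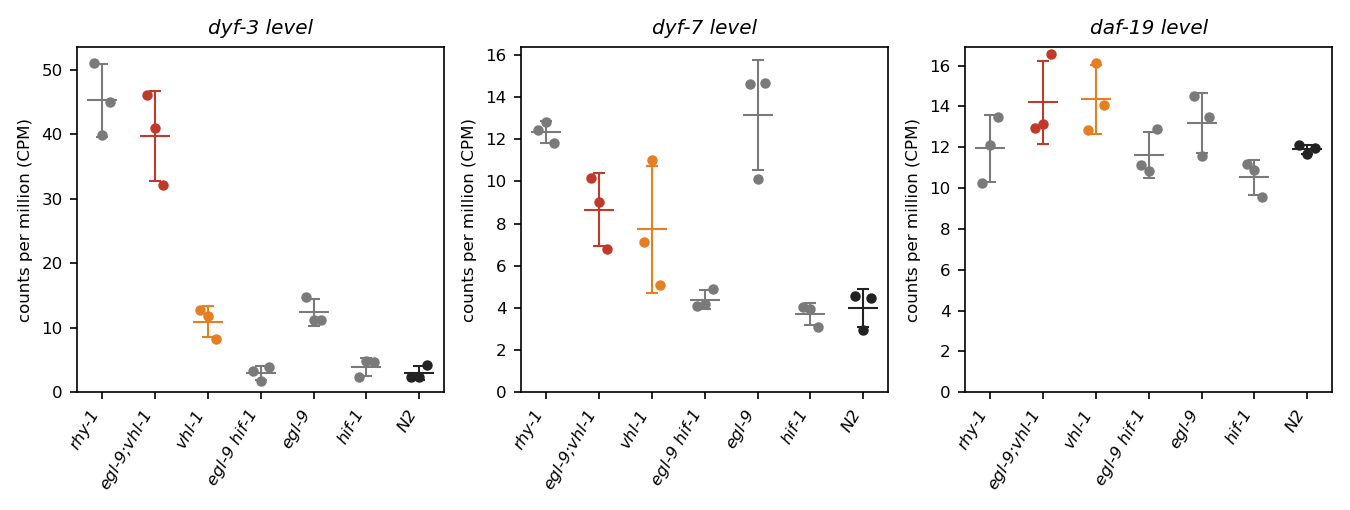
Levels of dyf-3, dyf-7 and daf-19 in CPM (y axes, linear from 0) for 7 genotypes (x axes), with 1 point a library and the mean with its SD (n = 3). dyf-3 lay at 32.2 to 46.1 CPM in egl-9;vhl-1 and 2.36 to 4.23 CPM in N2, while daf-19 lay at 12.9 to 16.6 CPM in egl-9;vhl-1 and 11.7 to 12.1 CPM in N2.

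dyf-3 took a large share of the summed cilium gene signal. It made up 26.7 to 37% of the summed CPM of the 40 genes in egl-9;vhl-1 and 8.88 to 12.6% in vhl-1, against 9.76 to 14% in egl-9 and 3.23 to 5.26% in N2. The sum was 125.2 ± 4.99 CPM in egl-9;vhl-1, 100.4 ± 6.25 in vhl-1, 105.8 ± 9.31 in egl-9 and 75.3 ± 4.38 in N2 (SD, n = 3 each). Without dyf-3 and dyf-7, which were taken out after their levels were seen, the sums were 76.8 CPM in egl-9;vhl-1, 81.7 in vhl-1, 80.3 in egl-9 and 68.3 in N2. The double mutant had the higher sum of the pair with egl-9. Once both genes were left out its mean was lower, but its libraries, at 68.4 to 81.5 CPM, overlapped egl-9 at 75.3 to 89.35 CPM. In the wild-type background all vhl-1 libraries, at 80.1 to 82.85 CPM without both genes, lay above N2 at 65.6 to 71.6 CPM. None of these sums was tested. In whole animals, fewer or more cells of a type and less or more RNA per cell cannot be told apart.

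**Figure D2:**
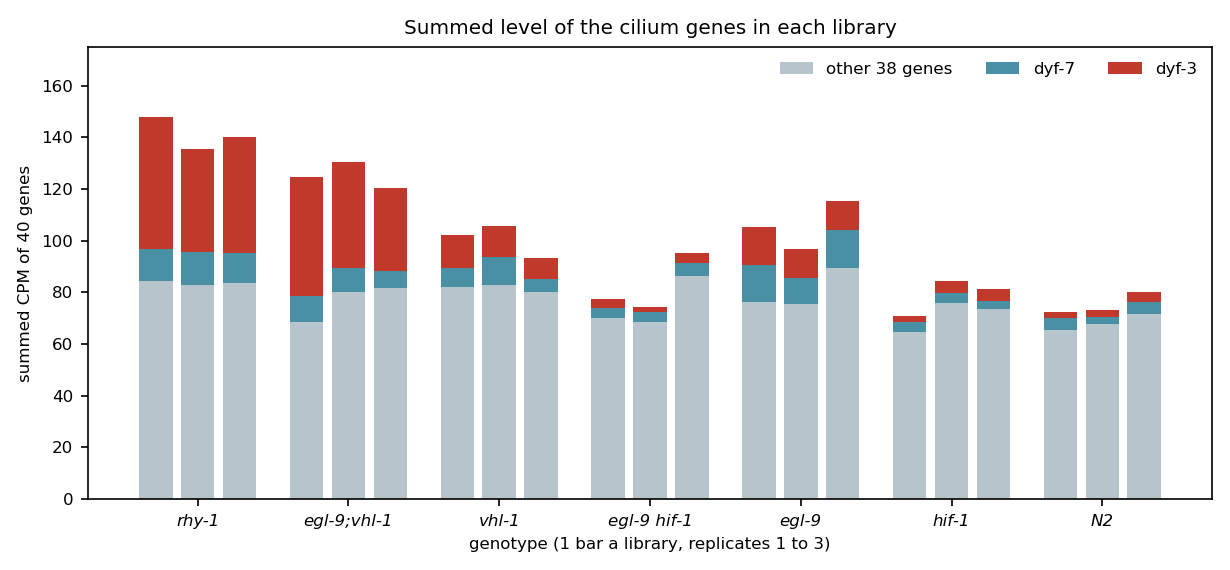
Summed level of the 40 cilium genes in CPM (y axis, from 0), with 1 bar for each library of the 7 genotypes (x axis), stacked as dyf-3, dyf-7 and the other 38 genes. The 38 genes averaged 76.8 CPM in egl-9;vhl-1 and 68.3 CPM in N2, while the whole bars averaged 125.2 CPM in egl-9;vhl-1 and 75.3 CPM in N2.

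Among the other IFT-B genes, osm-1, a large peripheral subunit of the complex, had 12.3, 16.6 and 14.5 CPM in egl-9;vhl-1 and 10.6, 10.1 and 8.88 CPM in vhl-1. It had 12.6, 12.2 and 15.5 CPM in egl-9 and 9.41, 8.48 and 8.70 CPM in N2. The double mutant libraries lay above N2 and overlapped egl-9, and the vhl-1 libraries overlapped N2. osm-1 rose in the vhl-1 double mutant against N2 by 0.71 ± 0.20 on the log2 scale (edgeR adjusted p = 0.00814) and in egl-9 against N2 by 0.60 ± 0.20 (edgeR adjusted p = 0.0298). Its log2 differences with vhl-1 loss were 0.11 in egl-9 mutants (interval −0.29 to 0.51) and 0.15 in the wild-type background (−0.26 to 0.57), and neither was called. Without egl-9;vhl-1 replicate 2, the first call was lost (log2 0.57, edgeR adjusted p = 0.0548), and the second was lost without N2 replicate 2 or 3 or egl-9 replicate 3 (log2 0.57, 0.57 and 0.49, with an edgeR adjusted p of at most 0.133). The counting did not use strand, and osm-1 overlaps K08B5.2 on the opposite strand. Of the 40 genes, 21 overlap another protein-coding gene, and 14 overlap one on the opposite strand. klp-20 overlaps hpo-38 and F40G9.17 on the same strand, while dyf-7 and daf-19 overlap none.

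The other IFT-B genes tested were not called with vhl-1 loss. Of 8 tested IFT-B genes, 1 was called in vhl-1 against N2 and 1 in egl-9;vhl-1 against egl-9, dyf-3 both times. Summed without dyf-3, the 13 remaining IFT-B genes had 22.0, 27.9 and 26.0 CPM in egl-9;vhl-1 and 24.7, 22.98 and 19.4 CPM in vhl-1. They had 23.2, 24.2 and 28.8 CPM in egl-9, and 21.0, 19.2 and 19.5 CPM in N2, so that the double mutant overlapped egl-9 and the vhl-1 libraries overlapped N2. The lowest IFT-B gene, ift-20, had 1 count in all 21 libraries together. Its length of 390 bases, and the counts of the other low genes, limit what could be seen.

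All 4 IFT-A genes, which serve the return journey, were tested and edgeR called 0 with vhl-1 loss in either background, as did DESeq2, and 0 had an unadjusted p below 0.05. Their sum was 7.29, 10.2 and 8.61 CPM in egl-9;vhl-1 and 13.3, 10.9 and 13.03 CPM in vhl-1, against 8.32, 8.65 and 11.7 CPM in egl-9 and 7.24, 9.19 and 12.1 CPM in N2. The vhl-1 libraries overlapped N2 and the double mutant libraries overlapped egl-9. The IFT-A gene with the highest level per length was dyf-2, at 4.06, 4.71 and 3.92 CPM in vhl-1 and 2.38, 4.12 and 3.75 CPM in N2. It differed by 0.32 on the log2 scale (interval −0.26 to 0.89). The lowest per length was che-11, at 2.19, 1.12 and 1.96 CPM in vhl-1 and 1.24, 0.71 and 2.30 CPM in N2, a log2 difference of 0.32 (interval −0.42 to 1.05).

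Of 5 tested motor subunits edgeR called 0 with vhl-1 loss in either background, as did DESeq2, while 1 had an unadjusted p below 0.05 in each. klp-20, a motor subunit of the heterotrimeric kinesin and the highest of this group per length, had 6.91, 7.29 and 8.30 CPM in vhl-1 and 5.90, 5.89 and 4.71 CPM in N2. All vhl-1 libraries lay above N2, but the log2 difference of 0.44 ± 0.20 was not called (edgeR adjusted p = 0.160). The double mutant had 6.19, 7.12 and 6.02 CPM, within the range of egl-9 at 6.30, 7.72 and 4.80 CPM (log2 0.05, interval −0.38 to 0.47). che-3, the heavy chain of the ciliary dynein and the lowest motor per length, had 2.48, 2.71 and 2.15 CPM in egl-9;vhl-1, all below egl-9 at 3.33, 2.80 and 3.63 CPM. That log2 difference of −0.41 was not called (edgeR adjusted p = 0.473). The motors summed to 17.3, 17.7 and 18.4 CPM in egl-9;vhl-1, all below the 20.3, 19.96 and 19.2 CPM of egl-9, and to 20.3, 18.2 and 20.8 CPM in vhl-1, all above the 16.8, 17.3 and 17.4 CPM of N2. The summed level was not tested.

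The BBSome, which links membrane cargo to IFT particles, had 1 call with vhl-1 loss among its 5 tested subunits. bbs-5, a lipid-binding subunit with the highest level per length of the group, had 0.55, 0.40 and 0.75 CPM in egl-9;vhl-1 and 0.99, 1.79 and 1.15 CPM in vhl-1. It had 1.43, 1.46 and 1.76 CPM in egl-9 and 0.72, 1.18 and 1.45 CPM in N2. The double mutant libraries rested on 4, 4 and 7 counts, against 12, 11 and 15 counts in egl-9, and the 2 groups did not overlap. It fell by 1.43 ± 0.38 on the log2 scale in egl-9;vhl-1 against egl-9 (edgeR adjusted p = 0.0249), while in vhl-1 against N2 the log2 difference was 0.24 (interval −0.48 to 0.96). The call was lost in 6 of 28 alternative settings, DESeq2 among them, with adjusted p of 0.0952 at most. The 4 libraries without which it was lost were egl-9 replicates 1 and 3 (log2 −1.49 and −1.33) and egl-9;vhl-1 replicates 1 and 2 (log2 −1.42 and −1.23). bbs-5 overlaps inpp-4B on the same strand. The lowest BBSome gene per length, bbs-2, had 0, 0.60 and 0.75 CPM in egl-9;vhl-1, 0.66, 1.01 and 0.46 CPM in vhl-1, 1.19, 0.27 and 1.17 CPM in egl-9 and 0.52, 0.82 and 1.09 CPM in N2, and was not called.

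**Figure D3:**
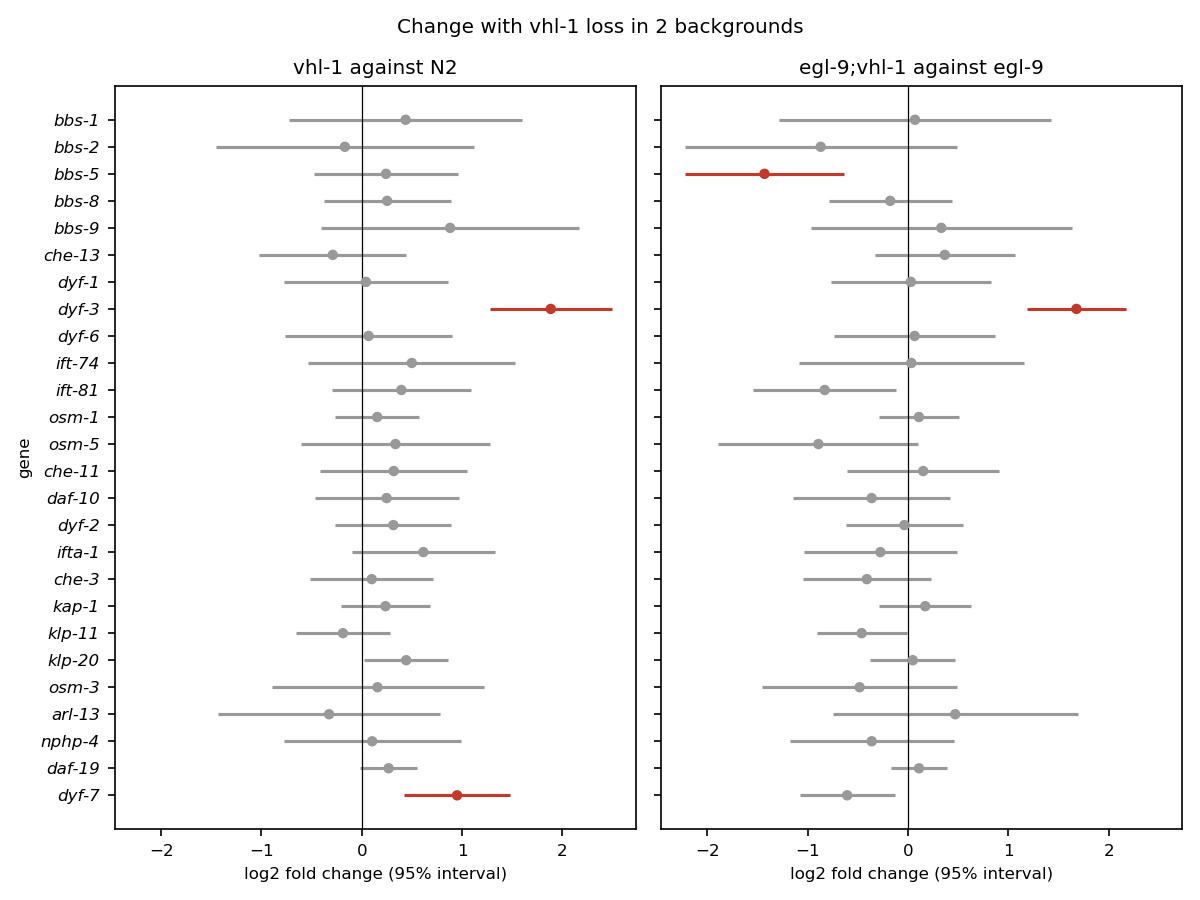
Log2 fold change (x axes) of the 26 tested cilium genes (y axis) with vhl-1 loss, in vhl-1 against N2 (left) and egl-9;vhl-1 against egl-9 (right); points are estimates, lines 95% intervals, and red marks an adjusted p below 0.05. dyf-3 lay at 1.88 (left) and 1.68 (right), and most intervals of the other genes crossed 0.

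Counts of the transition zone genes and small GTPases were too low for most to be tested. nphp-4, a scaffold of the transition zone, was the 1 tested gene of 5, with 1.38, 2.01 and 1.61 CPM in egl-9;vhl-1, 0.88, 2.13 and 1.15 CPM in vhl-1, 0.95, 2.26 and 3.28 CPM in egl-9 and 1.24, 1.06 and 1.57 CPM in N2. It was not called with vhl-1 loss in either background. mksr-2, a B9-domain protein and the highest of the group per length, had 2, 3 and 7 counts in egl-9;vhl-1 and 3, 4 and 7 in vhl-1, against 5, 3 and 1 in egl-9 and 6, 4 and 2 in N2. nphp-1, the partner of nphp-4 and the lowest per length, had 4, 7 and 11 counts in egl-9;vhl-1 and 9, 6 and 3 in vhl-1, against 4, 1 and 5 in egl-9 and 1, 4 and 1 in N2. The GTPase arl-13, which works in the proximal cilium, had 8, 6 and 7 counts in egl-9;vhl-1 and 7, 5 and 9 in vhl-1, against 3, 6 and 5 in egl-9 and 7, 7 and 12 in N2, and was not called. arl-3, another GTPase of the cilium, had 5, 3 and 5 counts in egl-9;vhl-1 and 10, 7 and 4 in vhl-1, against 4, 4 and 14 in egl-9 and 2, 3 and 6 in N2.

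In all, 14 genes did not pass the filter: bbs-4, osm-6, che-2, dyf-11, dyf-13, ifta-2, ift-20, xbx-1, arl-3, mks-1, mksr-1, mksr-2, nphp-1 and dyf-5. No library had more than 18 counts of any of them, the highest being mks-1. Their summed level was 5.78 to 6.45 CPM in egl-9;vhl-1 and 5.94 to 8.55 CPM in vhl-1, against 5.47 to 6.79 CPM in egl-9 and 4.45 to 6.71 CPM in N2. These ranges overlapped within each background. The main test did not cover these genes, so differences in single genes among them were not assessed there, and their low counts limit what could be seen.

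daf-19, the RFX factor that controls ciliary genes, had 12.9, 13.1 and 16.6 CPM in egl-9;vhl-1 and 12.8, 16.1 and 14.1 CPM in vhl-1. It had 14.5, 11.6 and 13.5 CPM in egl-9 and 12.1, 11.7 and 11.96 CPM in N2. All libraries with vhl-1 loss lay above N2, by less than the test could call: the log2 differences were 0.26 (interval −0.03 to 0.54, edgeR adjusted p = 0.152) and 0.27 (interval −0.01 to 0.55, edgeR adjusted p = 0.212). Averaged over both backgrounds, the log2 difference with vhl-1 loss was 0.19 (edgeR adjusted p = 0.199). dyf-5, a MAP kinase that sets cilium length, had 6, 4 and 3 counts in egl-9;vhl-1 and 5, 3 and 5 in vhl-1, against 4, 4 and 3 in egl-9 and 2, 2 and 0 in N2.

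dyf-7 encodes a zona pellucida domain protein that holds dendrite tips in place while the neuron extends, and is a ciliary gene by its mutant defect rather than by location. It had 10.2, 9.03 and 6.78 CPM in egl-9;vhl-1 and 7.13, 10.99 and 5.07 CPM in vhl-1, against 14.6, 10.1 and 14.6 CPM in egl-9 and 4.55, 2.95 and 4.47 CPM in N2. All libraries with vhl-1 loss lay above N2, and the double mutant overlapped egl-9 by 1 library. dyf-7 was 1.93-fold higher in vhl-1 than in N2 (interval 1.34 to 2.78, edgeR adjusted p = 0.0169) and 2.15-fold higher in the double mutant than in N2 (interval 1.5 to 3.09, edgeR adjusted p = 0.00191). Between the double mutant and egl-9 the log2 difference was −0.61 ± 0.23, which was not called (edgeR adjusted p = 0.106) except without egl-9 replicate 2 (log2 −0.76, edgeR adjusted p = 0.0378). The change with vhl-1 loss differed between the 2 backgrounds by −1.56 ± 0.34 on the log2 scale (edgeR adjusted p = 0.00624).

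The vhl-1 call of dyf-7 leaned on single libraries. Without vhl-1 replicate 2 the log2 change was 0.61 (edgeR adjusted p = 0.134), and without N2 replicate 2 it was 0.78 (edgeR adjusted p = 0.0929). The call was also lost with only the groups compared in the fit (log2 0.95, edgeR adjusted p = 0.108), the last of 3 such settings among 29. The summed level of 23 L4 molt genes was 1227 CPM in vhl-1 replicate 2, against 82.2 and 76.7 CPM in vhl-1 replicates 1 and 3. It was 238.8 to 585.4 CPM in egl-9;vhl-1, 974.9 to 2201 CPM in rhy-1, 69.9 to 73.3 CPM in egl-9 hif-1, 1155 to 2805 CPM in egl-9, 70.1 to 227.9 CPM in hif-1 and 55.5 to 62.3 CPM in N2. In vhl-1 replicate 2, the library with the high sum, dyf-7 was the highest of its group, while replicates 1 and 3, with low sums, still lay above N2. In egl-9;vhl-1 dyf-7 was highest, at 10.2 CPM, in the library with the lowest sum, and in hif-1 replicate 1, with a sum of 227.9 CPM, it was 4.06 CPM. In hif-1 that value was the highest of its group, as was the sum. In egl-9 the lowest dyf-7 value, 10.1 CPM in replicate 2, came with the lowest sum, 1155 CPM. It was 14.6 CPM in egl-9 replicates 1 and 3, with sums of 2805 and 1764 CPM. In rhy-1, dyf-7 had 12.4, 12.8 and 11.8 CPM, with sums of 2201, 1475 and 974.9 CPM. Like the sum, dyf-3 was higher in rhy-1, egl-9;vhl-1 and egl-9 than in N2, and within vhl-1 it had 12.8 CPM in replicate 1, 11.8 in replicate 2 and 8.30 in replicate 3. The part of molt genes in the dyf-3 and dyf-7 values was not tested.

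Outside vhl-1 loss, 3 of 26 cilium genes rose in rhy-1 against N2 (dyf-3, dyf-7 and osm-3) and 3 rose in egl-9 against N2 (dyf-3, dyf-7 and osm-1), where 29.6% and 25.8% of all genes were called, 16.7% and 14.7% higher. In egl-9 hif-1 against egl-9, 3 fell (dyf-3, dyf-7 and klp-11), where 21.4% of all genes were called and 13.2% were lower. Setting the vhl-1 double mutant against vhl-1, dyf-3 rose and bbs-5 fell (7.69%, with 17.2% of all genes called), where bbs-5 lost its call in 6 of 27 alternative settings, among them without vhl-1 replicate 2 or 3 and without egl-9;vhl-1 replicate 1 or 2 (log2 −0.90, −1.27, −1.17 and −0.99). In vhl-1 against egl-9, dyf-7 fell by 0.77 on the log2 scale (3.85%, with 12% of all genes called), a call lost in 6 of 29 alternative settings, among them without vhl-1 replicate 1 or 3 and without egl-9 replicate 1 or 3 (log2 −0.71, −0.54, −0.68 and −0.68). dyf-7 was 4.07, 4.20 and 4.91 CPM in egl-9 hif-1 and fell there by 1.58 ± 0.24 on the log2 scale against egl-9 (edgeR adjusted p = 6.58e-05). The edgeR test called 0 of 26 in hif-1 against N2 (14.4% of all genes) and 0 in egl-9 hif-1 against N2 (6.56% of all genes). At an unadjusted p below 0.05 these counts were 0 and 2, and DESeq2 with adjustment called 0 in both. osm-3 and klp-11 fall outside the rule for named genes and were chosen after their values were seen. osm-3 overlaps K09B3.1 on the opposite strand and algn-14 on the same strand, and klp-11 overlaps F20C5.11 on the same strand. osm-3, the homodimeric kinesin of the distal cilium, had 2.09, 3.404 and 2.74 CPM in rhy-1 and 0.41, 1.06 and 1.81 CPM in N2, a log2 change of 1.34 ± 0.46 (edgeR adjusted p = 0.0324). The call was lost with only the groups compared in the fit (edgeR adjusted p = 0.0532) and without rhy-1 replicate 2 or 3 or N2 replicate 1 or 2 (log2 1.16, 1.34, 0.92 and 1.33). klp-11, the partner of klp-20, had 2.88, 2.52 and 2.35 CPM in egl-9 hif-1 and 3.92, 3.33 and 5.15 CPM in egl-9, a log2 change of −0.68 ± 0.22 (edgeR adjusted p = 0.0290). It was lost with DESeq2, with no filter on low counts (edgeR adjusted p = 0.0625), with only the groups compared in the fit (edgeR adjusted p = 0.121) and without egl-9 hif-1 replicate 2 or 3 or egl-9 replicate 1 or 3 (log2 −0.67, −0.60, −0.72 and −0.49).

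**Figure D4:**
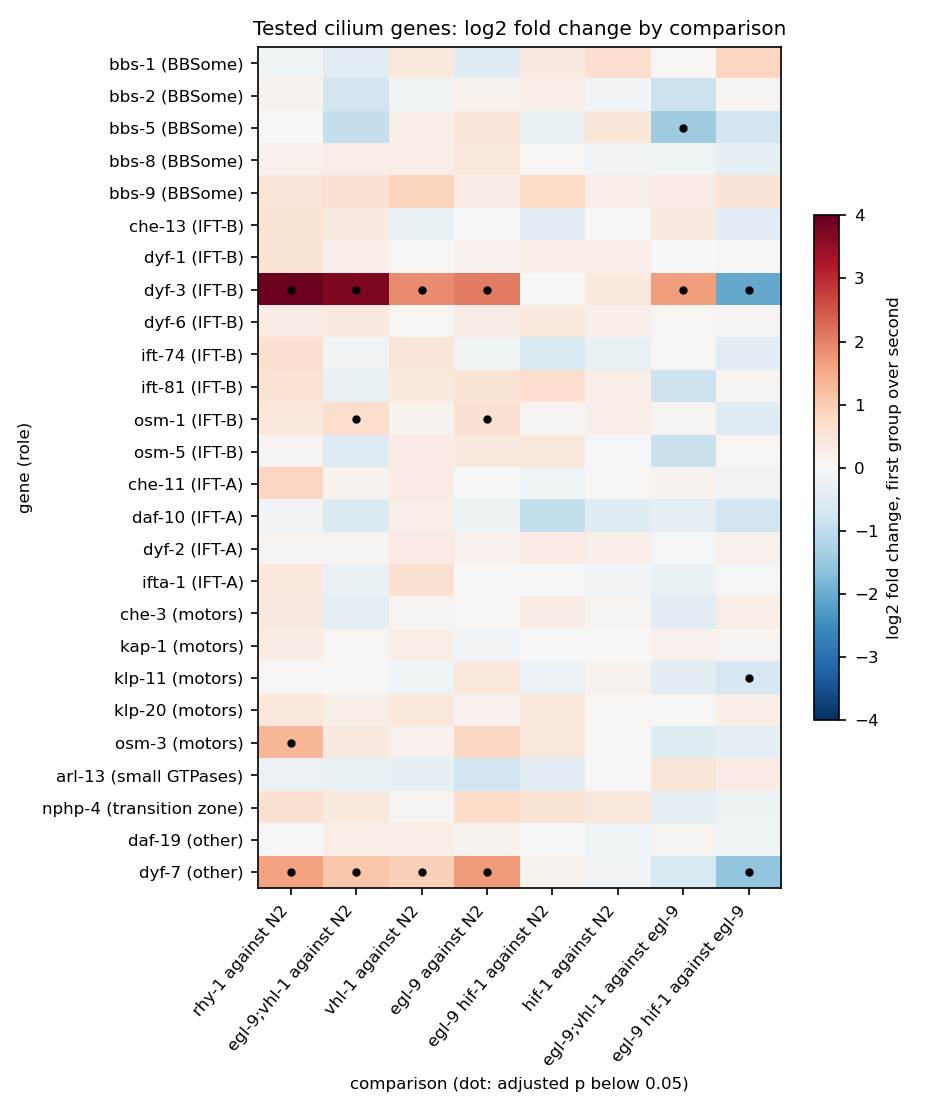
Log2 fold change (colour, first genotype over second) of the 26 tested cilium genes (rows, with role) in 8 comparisons (columns); a dot marks an adjusted p below 0.05. dyf-3 carries a dot in 6 columns, with 3.93 in rhy-1 against N2 and −2.03 in egl-9 hif-1 against egl-9, and no gene has a dot in egl-9 hif-1 against N2 or hif-1 against N2.

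As a description of the whole list, 22 of the 26 tested genes had a positive estimate in vhl-1 against N2, with a median log2 change of 0.25 (0.25 to 0.38 over the alternative settings). The median of all genes was −0.001 there, and 49.8% of them were positive. For the double mutant against egl-9, 13 of 26 were positive with a median of −0.01 that ran from −0.19 to 0.12 over the alternative settings. For the double mutant against N2, 15 of 26 were positive, with a median of 0.13 (0.02 to 0.22). All genes were positive in 51% and 51.5% of cases in these 2 comparisons. Genotypes without vhl-1 loss leaned the same way against N2. Positive estimates numbered 23 of 26 in rhy-1 (median 0.385), 20 in egl-9 (0.175), 17 in egl-9 hif-1 (0.12) and 16 in hif-1 (0.074). The shares of all genes positive there were 52.2%, 50%, 44.9% and 54.1%. In the difference between the backgrounds, 24 of 26 estimates were negative, with a median of −0.41 (−0.54 to −0.15), where the median of all genes was −0.03 and 47.3% were positive. These cover the genes that passed the filter, most with intervals across 0, and carry no test. In that difference 2 of 26 genes were called, dyf-7 and bbs-5, which is 7.69%, where 8.79% of all genes were called and 5.74% were lower. The bbs-5 call there was lost in 20 of 28 alternative settings (edgeR adjusted p = 0.0477, at most 0.171 among them).

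Of 39 further cilium genes measured, 18 were tested. In vhl-1 against N2, 1 rose, tba-9, which encodes an alpha-tubulin of ciliated neurons, and 0 fell, which is 5.56% where 12.5% of all genes were called. tba-9 had 6.36, 5.61 and 5.07 CPM in vhl-1 and 2.59, 1.06 and 3.141 CPM in N2, with a log2 change of 1.32 ± 0.31 (edgeR adjusted p = 0.00824). All vhl-1 libraries lay above N2, and the call was lost in 1 of 29 alternative settings, with only the groups compared in the fit (edgeR adjusted p = 0.0537). tba-9 was also called higher in egl-9 against N2 (log2 1.06, edgeR adjusted p = 0.018), a call lost in 3 of 29 alternative settings. In rhy-1 against N2 its log2 difference was 0.77 and was not called (edgeR adjusted p = 0.0762). With vhl-1 loss in egl-9 mutants edgeR called 0 (1, hyls-1, without egl-9 replicate 2), DESeq2 called 0 and 2 had an unadjusted p below 0.05, and tba-9 differed by 0.26 on the log2 scale (edgeR adjusted p = 0.669). Averaged over both backgrounds, tba-9 was again the 1 gene that edgeR called (5.56%, with 13.4% of all genes; log2 0.79 ± 0.21, edgeR adjusted p = 0.0202), a call lost in 4 of 29 alternative settings with adjusted p of 0.0598 at most, among them without vhl-1 replicate 1, egl-9;vhl-1 replicate 3 or egl-9 replicate 1. Of genes not called in that average, che-10 (log2 −0.26, edgeR adjusted p = 0.0540) was called in 7 of 29 alternative settings, DESeq2 among them (adjusted p = 0.0493), and hyls-1 (log2 0.20, edgeR adjusted p = 0.0539) in 6 of 29. Libraries without which one was called were, for che-10, egl-9 replicate 2, rhy-1 replicate 1, vhl-1 replicate 2, egl-9 hif-1 replicate 1 and egl-9;vhl-1 replicate 2, and for hyls-1, egl-9 replicate 2 and egl-9 hif-1 replicate 3. Against N2, the vhl-1 double mutant had 4 higher and 1 lower of 18, which is 27.8% where 34.6% of all genes were called. che-12, a ciliary tubulin-binding protein, had 35.1, 36.6 and 37.7 CPM in egl-9;vhl-1 and 1.76, 1.53 and 0.72 CPM in N2 (log2 4.73 ± 0.24, edgeR adjusted p = 1.81e-11). It was at 1.86, 2.35 and 1.73 CPM in vhl-1 and 37.2, 40.5 and 58.6 CPM in egl-9, and was not called with vhl-1 loss in either background (log2 −0.32 in egl-9;vhl-1 against egl-9 and 0.54 in vhl-1 against N2). It was also high in rhy-1, at 23.7, 25.2 and 24.9 CPM, but not in egl-9 hif-1, at 1.32, 1.16 and 2.45 CPM, against egl-9 a log2 change of −4.77 (edgeR adjusted p = 9.27e-12). The remaining genes called in egl-9;vhl-1 against N2 were tba-9 (log2 1.32), the basal body gene hyls-1 (log2 0.53), the tubulin deglutamylase ccpp-1 (log2 0.23) and the rootlet protein che-10 (log2 −0.37). The ccpp-1 call was lost in 23 of 29 alternative settings, and that of che-10 in 3 of 29, without egl-9;vhl-1 replicate 1 or 3 or N2 replicate 1. Some of these genes were also called without vhl-1 loss. hyls-1 and ccpp-1 were higher in egl-9 against N2 (log2 0.33 and 0.253) and in rhy-1 against N2 (0.291 and 0.265). ccpp-1 was also called in egl-9 hif-1 against N2 (log2 0.30), a call lost in 20 of 29 alternative settings.

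Markers of the cells that carry cilia were also read. Of 23 tested pan-neuronal genes, 1 rose (cla-1, a synaptic active-zone protein, log2 0.57) and 2 fell (unc-18 and unc-64, both of the synaptic vesicle fusion machinery, log2 −0.41 and −0.59) in vhl-1 against N2, which is 13% where 12.5% of all genes were called, and 0 were called in egl-9;vhl-1 against egl-9 by edgeR or DESeq2, with 0 at an unadjusted p below 0.05. Of 9 tested amphid and phasmid neuron genes 0 were called in either comparison by either tool, with 0 at an unadjusted p below 0.05, and the 23 measured summed to 62.5 to 67.0 CPM in egl-9;vhl-1 and 63.5 to 73.4 CPM in vhl-1, against 65.0 to 66.9 CPM in egl-9 and 54.2 to 64.2 CPM in N2. Of these 23 genes, 4 were at 0 in all egl-9;vhl-1 libraries and 3 in all vhl-1 libraries, against 4 in egl-9 and 4 in N2. The sheath and socket glia list, with 5 genes tested, had 0 called in either comparison by either tool, with 0 at an unadjusted p below 0.05 in vhl-1 against N2 and 1 in egl-9;vhl-1 against egl-9. Male-enriched ciliated neuron genes summed to 2.15 to 3.17 CPM in egl-9;vhl-1 and 1.96 to 3.25 CPM in vhl-1, against 0.67 to 2.14 CPM in egl-9 and 1.69 to 2.24 CPM in N2, near 0 in all. Of 22 tested L4 molt genes, 6 rose in vhl-1 against N2, or 27.3% where 12.5% of all genes were called. The vhl-1 libraries differed in the summed level of this list. It was 1227 CPM in replicate 2, against 82.2 and 76.7 CPM in replicates 1 and 3. In egl-9;vhl-1 against egl-9, 5 of 22 fell, or 22.7% where 8.49% of all genes were called.

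Oocyte and sperm genes, markers of the germ line, also moved with vhl-1 loss in egl-9 mutants. Of 17 tested, 6 were called in egl-9;vhl-1 against egl-9, or 35.3% where 8.49% of all genes were called. DESeq2 called 8, and 14 had an unadjusted p below 0.05. The oocyte genes oma-1, perm-2 and puf-5 rose (log2 0.31, 0.37 and 0.30), and the sperm genes gsp-3, gsp-4 and spe-9 fell (log2 −0.97, −0.77 and −2.01), where gsp-3 and gsp-4 are close paralogs that may share reads. In vhl-1 against N2, 2 of 17 rose, the oocyte genes puf-5 and rme-2 (log2 0.29 and 0.36), or 11.8% where 12.5% of all genes were called. In egl-9;vhl-1 against N2, 8 of 17 rose and 7 fell, or 88.2% where 34.6% of all genes were called. The list, of which 18 genes were measured, summed to 11250 to 11970 CPM in egl-9;vhl-1 and 10420 to 11510 CPM in vhl-1, against 8959 to 10510 CPM in egl-9 and 9723 to 10790 CPM in N2. The sum of the egl-9;vhl-1 libraries lay above egl-9, the comparison in which dyf-3 rose and bbs-5 fell, and the vhl-1 libraries overlapped N2. The part of the marker lists in the cilium gene values was not tested.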

How the data were processed

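Whole-worm RNA was measured with SmartSeq2 libraries, a method without strand information. Reads were handled with bcl2fastq 1.8.4 and kallisto, per the submitters' processing notes. For kallisto's version, its transcripts and the build: not given in the sources used here. Each deposited table holds estimated counts and TPM for 32905 transcripts, per the file headers. Estimated counts were summed per gene through Ensembl 115 (WBcel235) names and rounded. By transcript name 28369 transcripts matched, by sequence name 4229, and 307 matched none (0.102 to 0.127% of the counts). The deposited TPM values were summed per gene and used only to compare levels between genes per length.

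The main test was the quasi-likelihood F-test of edgeR (version 4.0.16, under R 4.3.3). A joint model held all 21 libraries, with genotype as its single factor, TMM scaling and the filterByExpr filter at a minimum count of 10. There were 12 comparisons and 2 added after values were seen. The standard error is the log2 change divided by the square root of F. The script was tested on simulated data. Alternatives were RLE scaling, DESeq2, other filters, only the groups compared, a replicate block, another threshold, transcripts matched by own name, and each library left out.

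Genes were named with values if called in vhl-1 against N2, egl-9;vhl-1 against egl-9, their average or egl-9;vhl-1 against N2, plus daf-19 and the highest and lowest gene of each role by TPM. Other lists named up to 5 called genes. The genes, lists and tests were chosen with earlier results of these data known. No sequences were used here.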

Additional observations from a re-analysis of the deposited data

Results flagged for a closer look

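The change of dyf-7 with vhl-1 loss differed between backgrounds, by −1.56 on the log2 scale (edgeR adjusted p = 0.00624): the log2 change was −0.61 in egl-9;vhl-1 against egl-9 and 0.95 in vhl-1 against N2. The change of bbs-5 also differed between backgrounds, by −1.67 (edgeR adjusted p = 0.0477), with a log2 change of −1.43 in egl-9;vhl-1 against egl-9 and 0.24 in vhl-1 against N2. The bbs-5 difference lost its call in 20 of 28 alternative settings, and its lowest group held 4, 4 and 7 counts.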

How the results depend on the processing

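No result changed direction while called. Of 4194 single-gene log2 changes recomputed under alternatives, 4003 kept their side of the threshold, 146 lost the call and 45 gained it. The number of cilium genes called with each library left out ranged from 1 to 2 in vhl-1 against N2, 1 to 3 in egl-9;vhl-1 against egl-9, 2 to 4 in egl-9;vhl-1 against N2, 1 to 1 in the average, 1 to 2 in the difference between backgrounds, 1 to 3 in egl-9;vhl-1 against vhl-1, 2 to 4 in rhy-1 against N2 and in egl-9 against N2, 2 to 3 in egl-9 hif-1 against egl-9, 0 to 2 in vhl-1 against egl-9, and 0 throughout against N2 in both hif-1 genotypes. With only the groups compared in the fit, the count was 1 in vhl-1 against N2, 1 in egl-9;vhl-1 against egl-9, 1 in the difference between backgrounds and 0 in vhl-1 against egl-9. With DESeq2, with the stricter filter and without a filter it was 1 in the difference between backgrounds and 1 in egl-9;vhl-1 against vhl-1, and with DESeq2 or the stricter filter also 1 in egl-9;vhl-1 against egl-9. At an adjusted p below 0.10 it was 4 in egl-9;vhl-1 against vhl-1, 5 in rhy-1 against N2 and 2 in vhl-1 against egl-9, which had 0 with transcripts matched by own name. Under the stricter filter, at a minimum count of 30, bbs-5 was not tested, so its call was not lost on a retest there. The cause of the other changes was not tested. With the replicate number as a block, the difference between backgrounds had 1 call in place of 2, and no other count moved by over 1.5 times. Deviations of same-numbered libraries had correlations of −0.29 to 0.254, over 0.1 in 14 of 63 pairs. A library correlated best with its own number in 49 of 126 cases. These values showed no clear pairing by number, but they were not tested against chance. Low counts limit the transition zone, BBSome and GTPase genes.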

Other observations

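dyf-3 has 3 transcripts in the tables, and the deposited estimated counts were split unevenly among them. The transcript C04C3.5b had 300.0, 364.0 and 263.9 estimated counts in egl-9;vhl-1 and 103.99, 26.5 and 26.5 in vhl-1, against 120.0, 84 and 53.1 in egl-9 and 0, 0 and 20 in N2. C04C3.5c had 0, 4.54 and 0.06 in egl-9;vhl-1 and 0, 69.6 and 6.18 in vhl-1, against 0, 0 and 39.6 in egl-9 and 18.1, 13.6 and 0 in N2. C04C3.5a had 35.0, 40.5 and 35.0 in egl-9;vhl-1 and 13.01, 8.83 and 39.3 in vhl-1, against 4.01, 0 and 3.36 in egl-9 and 4.87, 6.4 and 15 in N2. The split differed between libraries of 1 genotype, and kallisto assigns reads shared by transcripts by estimation, so no transcript was compared between genotypes.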
